A study of Mus musculus with 8 samples.

Results

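The genes described here are the Toll-like receptors Tlr1, Tlr2, Tlr4, Tlr5, Tlr6, Tlr7, Tlr8, Tlr9 and Tlr13 together with the co-receptor Cd14. They were chosen by their gene symbols and make up 10 of the 21878 symbols in the count table. RNA was sequenced from the peripheral blood of wild-type female C57BL/6 mice aged 6-8 weeks. In the stress group, 4 mice were restrained in a ventilated tube for 6 h, and in the control group 4 littermates stayed in their cage. Food and water were withheld from both groups, so the control mice share the fasting but not the restraint. The samples are whole blood, so each value is a mixture over all blood cells, and in such samples more cells of a type and more RNA per cell cannot be told apart.

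Toll-like receptors are germline-encoded sensors of microbial molecules on myeloid cells and B cells. TLR1, TLR2, TLR4, TLR5 and TLR6 sit at the cell surface and bind lipopeptides, lipopolysaccharide or flagellin, while TLR7, TLR8, TLR9 and TLR13 sit in endosomes and bind nucleic acids. CD14 has no signalling domain. It hands lipopolysaccharide to TLR4 and its partner MD-2 and also serves TLR2, and all the receptors named here signal through the adaptor MyD88 to NF-kappaB and interferon regulatory factors.

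The libraries held 25978683 to 29655725 counts in the stress group and 31471145 to 39014775 in the control group. Haemoglobin genes took 61.2% to 75.5% of the stress counts and 51.9% to 63.8% of the control counts. Levels are given as counts per 1000000 (CPM) of the TMM-scaled library, a scaling that takes most genes as unchanged, and fold changes are stress against control. Over the 11718 tested genes, the median log2 fold change was -0.03 on the TMM scale and -0.82 on the scale of total counts alone, so values on the latter scale are read against that shift. To be called, a gene had to differ by more than 1 on the log2 scale, in either direction, with an adjusted p under 0.01 in the quasi-likelihood test of edgeR (Benjamini-Hochberg adjustment over all tested genes). No source used here ties the samples to separate experiments, so p-values measure the spread between these mice only.

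To show where these genes start, the 250 bases before the RefSeq start site are given for the receptors whose transcripts were higher at an adjusted p below 0.01 (Tlr2, Tlr8 and Tlr13) and for Tlr9, which was not. The table of RefSeq promoters (GRCm38.p6) held 7 of the 10 members. For Tlr2 and Tlr13 the gene models of GENCODE M21 start further upstream, at 83841767 and 106143204, within these windows. Part of the Tlr2 window and part of the Tlr13 window thus lie inside the annotated gene. Positions below are counted from the RefSeq start. Capitals mark matches, on either strand, to GAGGAA (the core bound by the myeloid factor PU.1), TTGCNNAA (C/EBP) and a loose NF-kappaB pattern of 3 G and 2 C around 5 free bases.
Tlr2, chr3:83841609-83841858, minus strand: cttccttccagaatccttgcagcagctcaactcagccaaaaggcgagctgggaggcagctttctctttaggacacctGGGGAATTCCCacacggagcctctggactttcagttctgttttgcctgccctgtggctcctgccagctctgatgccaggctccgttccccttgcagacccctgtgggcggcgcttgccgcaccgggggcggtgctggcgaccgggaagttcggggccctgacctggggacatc
Tlr8, chrX:167264330-167264579, minus strand: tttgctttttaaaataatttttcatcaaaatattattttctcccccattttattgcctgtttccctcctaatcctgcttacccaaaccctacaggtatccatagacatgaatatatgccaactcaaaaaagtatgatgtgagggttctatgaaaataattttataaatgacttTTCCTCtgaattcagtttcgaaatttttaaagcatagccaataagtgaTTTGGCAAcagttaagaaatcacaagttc
Tlr13, chrX:106143025-106143274, plus strand: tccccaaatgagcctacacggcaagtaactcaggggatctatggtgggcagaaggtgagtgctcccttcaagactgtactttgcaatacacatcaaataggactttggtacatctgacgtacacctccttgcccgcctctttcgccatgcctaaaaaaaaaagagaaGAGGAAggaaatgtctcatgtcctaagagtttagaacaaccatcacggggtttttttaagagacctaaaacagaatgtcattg
Tlr9, chr9:106222348-106222597, plus strand: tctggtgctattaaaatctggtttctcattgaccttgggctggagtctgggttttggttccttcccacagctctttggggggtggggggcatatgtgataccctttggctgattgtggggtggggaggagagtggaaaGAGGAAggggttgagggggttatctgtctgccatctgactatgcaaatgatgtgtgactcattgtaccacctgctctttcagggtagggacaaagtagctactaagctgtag
The Tlr2 window held 2 overlapping matches to the NF-kappaB pattern, one starting at -173 from the start site and one at -172, and no match to GAGGAA or TTGCNNAA. The Tlr8 window held 1 GAGGAA core from -77 to -72 and 1 C/EBP match from -29 to -22. Tlr13 and Tlr9 each held 1 GAGGAA core, starting at -83 and at -112. Among all 32851 promoter windows of this length, 23.3% held GAGGAA, 9.56% TTGCNNAA and 45.8% the NF-kappaB pattern. None of these 4 windows held the palindromic pattern of the glucocorticoid receptor, which 0.387% of all windows held, or a pattern of the interferon regulatory factors, which 2.98% held.

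All 10 members passed the filter of at least 10 counts in at least 4 samples. After restraint, Cd14, Tlr8 and Tlr2 were called up, which is 3 of 10 members against 1.69% of all tested genes, and 0 were called down, against 0.0171% of all tested genes. DESeq2 gave the same counts, and at an unadjusted p below 0.05 edgeR gave 6 members as higher and 1 as lower, against 18.2% and 13% of all tested genes. In sign alone, 8 of 10 members had a log2 fold change above 0, against 47.1% of all tested genes. Without the fold threshold, 4 of 10 were higher at an adjusted p below 0.01 (Cd14, Tlr8, Tlr2 and Tlr13), against 4.59% of all tested genes, and 0 were lower, against 0.324%. For these 4 genes the lowest stress value exceeded the highest control value, an order that 11.1% of all tested genes had, and the reverse held for Tlr1 alone, an order that 9.88% had. For the other 5 members the groups overlapped. The median log2 fold change was 0.73 over the members and -0.03 over all tested genes. The paper had already named Tlr2 and Cd14 among 10 hub genes, drawn from the genes that differed in these same libraries.

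**Figure D1:**
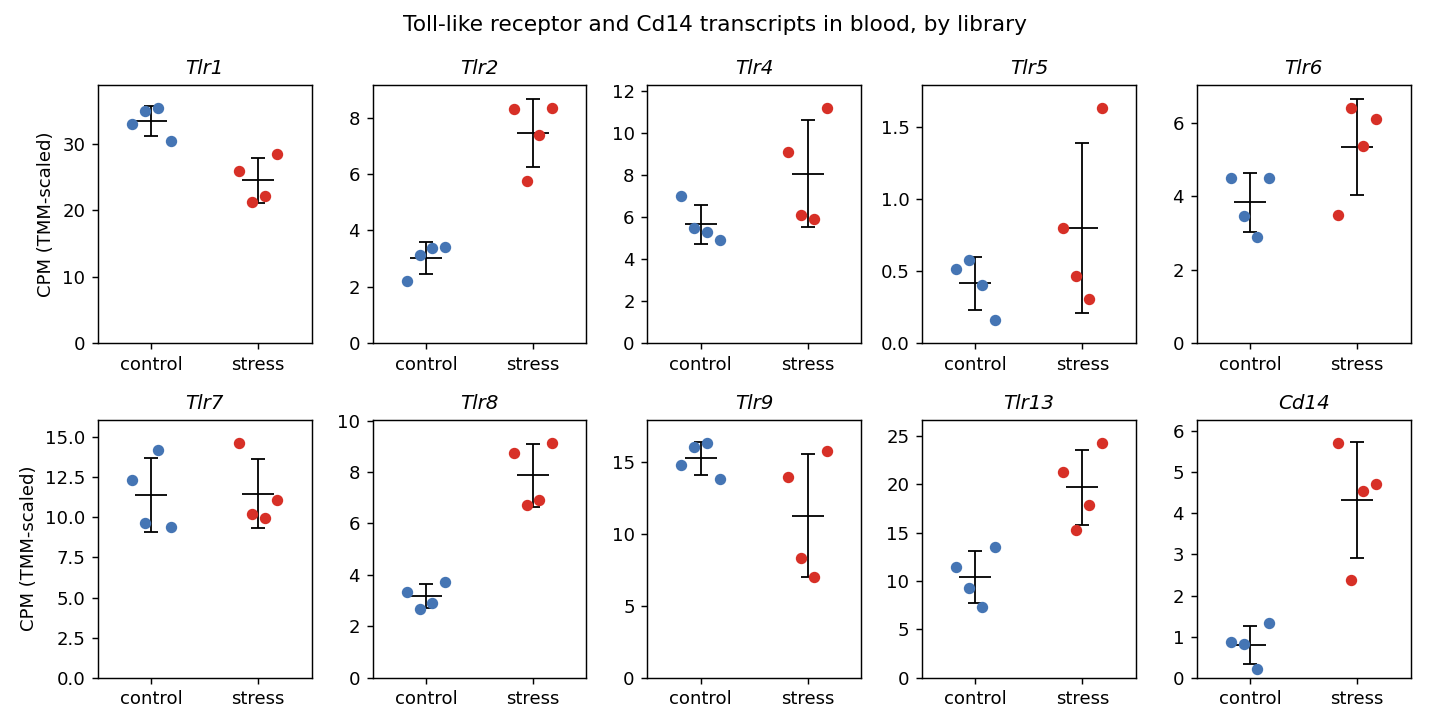
Level of each member in CPM (vertical axes, linear from 0) in each control and stress library (points), with the group mean and SD (n = 4 per group). Cd14, Tlr2, Tlr8 and Tlr13 are higher in every stress library than in any control library, Tlr1 is lower in every one, and the other 5 overlap.

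Cd14 (GRCm38 chromosome 18, 36725067 to 36726798, minus strand, a single exon block of 1732 bases in GENCODE M21) rose the most. Its level was 0.870, 0.813, 0.202 and 1.32 CPM in the control replicates 1 to 4 and 5.71, 2.37, 4.55 and 4.71 CPM in the stress replicates 1 to 4. The groups did not overlap, but the control values spread widely, with control replicate 3 the lowest at 14 counts. The means were 0.802 ± 0.461 and 4.33 ± 1.41 CPM (SD, n = 4 per group). The log2 fold change was 2.51 (standard error 0.44, edgeR, adjusted p = 0.00402), and 7 of the 11718 tested genes had a larger log2 fold change. Cd14 was still called when libraries were scaled by total counts alone (log2 fold change 1.82, edgeR, adjusted p = 0.00407). It was no longer called without control replicate 2 (edgeR, adjusted p = 0.0127), stress replicate 1 (0.0115) or stress replicate 3 (0.0173), at log2 fold changes of 2.54, 2.36 and 2.50.

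Tlr2 (chromosome 3, 83836272 to 83841767, minus strand), the receptor for bacterial lipopeptides, had 2.20, 3.13, 3.37 and 3.41 CPM in the control replicates and 8.30, 5.75, 7.36 and 8.32 CPM in the stress replicates. The lowest stress value lay well above the highest control value. The log2 fold change was 1.29 (standard error 0.18, edgeR, adjusted p = 0.00106). TLR2 works as a dimer with TLR1 or TLR6, whose genes lie next to each other on chromosome 5 (Tlr1 at 64924679 to 64933563 and Tlr6 at 64952031 to 64960097, both on the minus strand). The pair are close paralogs, so reads could be split between them in counting, which makes their separate values uncertain.

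Tlr1, the partner of Tlr2, was the one member with lower values throughout. It had 33.0, 34.9, 35.4 and 30.5 CPM in the control replicates and 25.96, 21.3, 22.2 and 28.6 CPM in the stress replicates, so that all stress values were lower, by a log2 fold change of -0.45 (standard error 0.11, edgeR, adjusted p = 0.0213), which did not pass. On total counts alone the log2 fold change was -1.22 and passed (edgeR, adjusted p = 0.00961), against a median of -0.82 for all tested genes on that scale. DESeq2 gave an adjusted p of 0.00538 at a log2 fold change of -0.44, under the fold threshold. Tlr6 had 2.89 to 4.51 CPM in the control and 3.48 to 6.40 CPM in the stress group, with overlap (log2 fold change 0.49, standard error 0.21, edgeR, adjusted p = 0.136).

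Tlr4 (chromosome 4, 66827584 to 66930284, plus strand), the receptor for lipopolysaccharide, had 7.01, 5.46, 5.28 and 4.89 CPM in the control replicates and 9.10, 6.08, 5.92 and 11.2 CPM in the stress replicates. Stress replicates 2 and 3 fell within the control range while replicates 1 and 4 lay above it. The difference did not pass (log2 fold change 0.53, standard error 0.20, edgeR, adjusted p = 0.0928). Tlr5 (chromosome 1, 182954788 to 182976044, plus strand), the flagellin receptor, was the scarcest member, with 5 to 30 counts in the control samples and 4 to 51 in the stress samples. A change in Tlr5 was not detectable at this depth and spread between mice (log2 fold change 1.00, standard error 0.52, edgeR, adjusted p = 0.209). The value of 51 was that of stress replicate 4, without which the log2 fold change was 0.36 (edgeR, adjusted p = 0.676).

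Among the endosomal receptors, Tlr8 (chromosome X, 167242696 to 167264329, minus strand) rose with the smallest p of all members. Its level was 3.34, 2.69, 2.92 and 3.72 CPM in the control replicates and 8.74, 6.73, 6.91 and 9.12 CPM in the stress replicates, with a wide gap between the groups. The log2 fold change was 1.33 (standard error 0.16, edgeR, adjusted p = 0.00090). Tlr8 and Tlr2 were called whichever of the 8 samples was left out. On total counts alone neither was called, at log2 fold changes of 0.60 for Tlr8 and 0.51 for Tlr2 (edgeR, adjusted p = 0.136 and 0.203).

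Tlr7 lies beside Tlr8 on chromosome X (167304929 to 167330558, minus strand), and the TLR7 protein recognises single-stranded RNA. Tlr7 had 12.3, 9.66, 14.2 and 9.40 CPM in the control replicates and 14.6, 10.2, 9.94 and 11.1 CPM in the stress replicates. The ranges lay almost on top of each other (log2 fold change 0.01, standard error 0.16, edgeR, adjusted p = 0.971), and the sign changed between scalings. Tlr9 (chromosome 9, 106222598 to 106226883, plus strand), the sensor of unmethylated CpG DNA, had 14.8, 16.02, 16.3 and 13.8 CPM in the control replicates and 13.9, 8.30, 6.98 and 15.8 CPM in the stress replicates. Stress replicates 2 and 3 were the low ones and the other two lay within the control range (log2 fold change -0.42, standard error 0.21, edgeR, adjusted p = 0.206).

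Tlr13 (chromosome X, 106143204 to 106160493, plus strand), which binds bacterial ribosomal RNA and has no human counterpart, had 11.4, 9.29, 7.30 and 13.5 CPM in the control replicates and 21.3, 15.3, 17.9 and 24.3 CPM in the stress replicates. It lay just under the fold threshold, with a log2 fold change of 0.94 (standard error 0.19, edgeR, adjusted p = 0.00725). Its adjusted p rose above 0.01 in 6 of the 8 fits lacking 1 sample (edgeR, up to 0.0285), and in the other 2, without control replicate 4 and without stress replicate 2, it was called. Exons of no other annotated gene overlapped those of any member, which matters because the use of strand in the counting is not given in the sources used here.

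**Figure D2:**
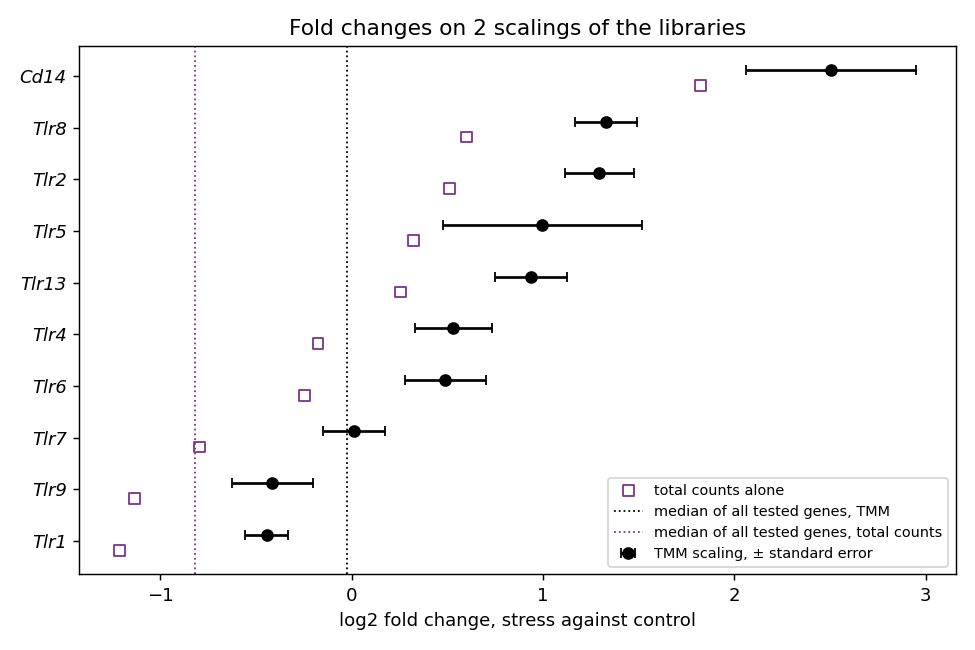
Log2 fold change of each member (horizontal axis, stress against control) with TMM scaling (black points, bars are standard errors) and with total counts alone (open squares), beside the median of all tested genes on each scale (dotted lines). Only Cd14 was called up on both scales, Tlr4, Tlr6 and Tlr7 change sign between them, and Tlr1 and Tlr9 lie below the median on both.

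Of the remaining family members in mice, Tlr12 did not pass, with 122 to 302 counts in the control samples and 83 to 169 in the stress samples (log2 fold change 0.34, standard error 0.15, edgeR, adjusted p = 0.154). Tlr3 had at most 36 counts in any sample (log2 fold change 0.76, standard error 0.45, edgeR, adjusted p = 0.271), and its exons overlap those of Gm45542 on the opposite strand. Tlr11 had at most 8 counts and was not tested.

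Levels were compared between genes as CPM per kilobase of exon (GENCODE M21). In the control group Tlr1 stood first at 10.001 ± 0.668, followed by Tlr9 at 4.38 ± 0.330 and Tlr7 at 2.79 ± 0.559 CPM per kilobase (SD, n = 4 each), with no overlap between Tlr1 and Tlr9 or between Tlr9 and Tlr7. Tlr13 followed at 2.41 ± 0.625 and overlapped Tlr7. Then came Tlr6, Tlr4, Tlr2 and Tlr8, between 1.03 and 0.884, where each overlapped the next, and last Cd14 at 0.463 ± 0.266 and Tlr5 at 0.0866 ± 0.0389 CPM per kilobase.

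The order differed in the stress group. Tlr1 was again first, at 7.33 ± 1.01 CPM per kilobase (SD, n = 4), but Tlr13 came second at 4.57 ± 0.912, and Cd14 moved from place 9 to place 5 at 2.50 ± 0.813. Between Tlr13 and Tlr6, each gene overlapped the next in this order. As a share of the 10 members' summed level, Tlr1 took 38.6% to 43.8% in the control and 24.6% to 27.9% in the stress samples, and Cd14 took 0.481% to 3.24% and 5.97% to 10.6%. The endosomal receptors together took 41.4% to 44.3% in the control and 42.4% to 47.5% in the stress samples, with overlap.

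**Figure D3:**
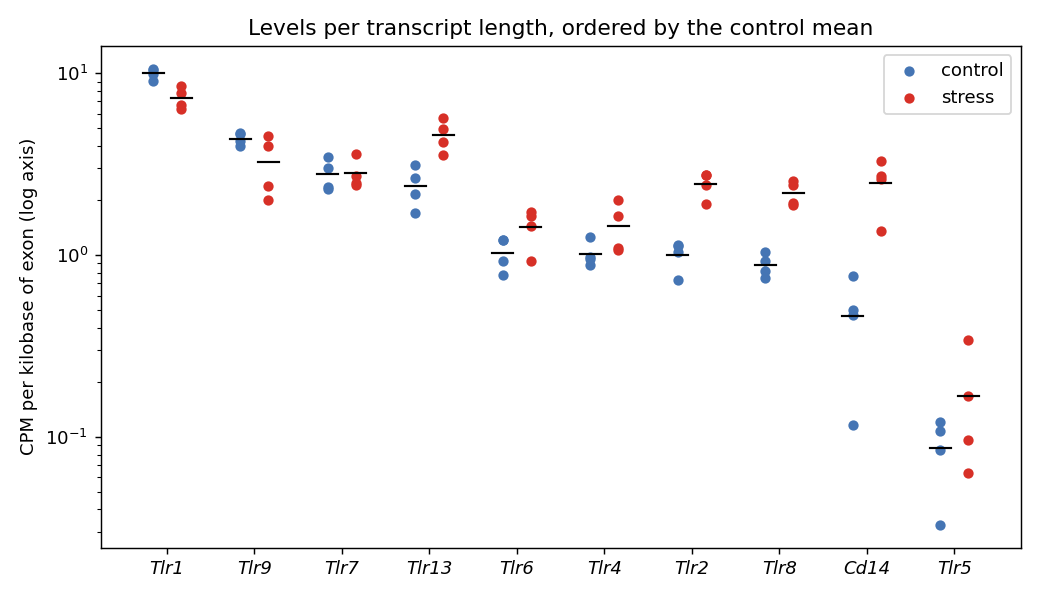
Level of each member per kilobase of exon (vertical axis, CPM per kilobase, log scale) in each control and stress library, ordered by the control mean, with horizontal bars at group means. Cd14 moves from 0.463 to 2.50 CPM per kilobase while Tlr1 stays the highest member in both groups.

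A ratio of 2 genes within a library does not depend on how libraries are scaled. For 8 pairs, the log2 ratio of counts (0.5 added to each count) was compared between the groups with a two-sided exact permutation test, whose smallest p with 4 samples against 4 is 0.0286. In 7 of the 8 pairs the groups did not overlap (exact permutation test, p = 0.0286, adjusted over the 8 pairs 0.0327). The same held for 19.2% of all pairs of tested genes. The pairs share members and were chosen with the members' values known. The lipopolysaccharide pair Cd14/Tlr4 had log2 ratios of -2.99, -2.73, -4.66 and -1.87 in the control replicates and -0.67, -1.35, -0.38 and -1.24 in the stress replicates, a shift of 2.15. In median terms there were 0.138 Cd14 counts for each Tlr4 count in control blood and 0.515 after restraint.

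The lipopeptide pair Tlr2/Tlr1 shifted by 1.76 on the log2 scale, from -3.48 ± 0.31 to -1.72 ± 0.13 (SD, n = 4 each). Tlr2/Tlr6 shifted by 0.84 with overlapping groups (exact permutation test, p = 0.0857, adjusted 0.0857). Tlr8/Tlr7, the neighbours on chromosome X, shifted by 1.30, from -1.83 ± 0.39 to -0.54 ± 0.19. Tlr2/Tlr9 shifted by 1.81, Tlr13/Tlr9 by 1.45, Tlr4/Tlr9 by 0.99 and Tlr4/Tlr7 by 0.46. The Tlr4/Tlr7 shift rests partly on stress replicate 4, at 0.01, while the other 3 stress values lay between -0.75 and -0.68. It rests partly also on control replicate 3, at -1.43, while the other control values lay between -0.94 and -0.81. Without stress replicate 4 the shift was 0.28, and without control replicate 3 it was 0.32.

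**Figure D4:**
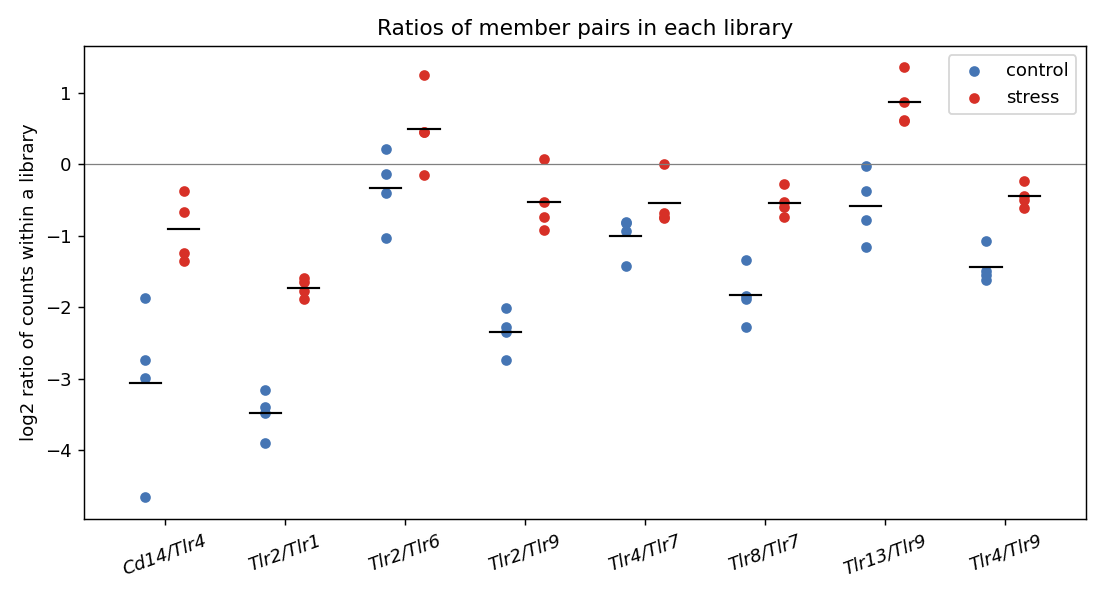
Log2 ratio of the counts of 2 members within each library (vertical axis) for 8 pairs, in control and stress libraries (points) with group means (bars). Cd14/Tlr4, Tlr2/Tlr1 and Tlr2/Tlr9 have the widest shifts, and Tlr2/Tlr6 is the pair whose groups overlap.

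Markers of the blood cells that carry these receptors also moved between the groups. Of all tested genes, 47.1% had a log2 fold change above 0 and 1.69% were called up. Of 11 tested neutrophil markers, 11 were higher and 8 were called up (among them S100a8, S100a9 and Lcn2), with a summed level of 193.3 to 382.6 CPM in the control and 596.3 to 882.2 CPM in the stress samples. Of 8 classical monocyte markers, 8 were higher and 5 were called up (among them F13a1, Lyz2 and Vcan), from 359.5 to 480.9 CPM in the control to 701.3 to 1201 CPM in the stress samples. Within that sum, Lyz2 had means of 272.9 CPM in the control and 679.3 CPM in the stress group. F13a1 had means of 48.3 and 116.2 CPM. How far these genes' counts come from monocytes was not tested. The paper's flow cytometry, which counts cells and not RNA, found fewer monocytes, T, B and NK cells and more neutrophils in blood after restraint. Of 8 B cell markers, 8 were lower and 0 were called, and 3 (Cr2, Fcer2a and Cd22) were lower at an adjusted p below 0.01 (edgeR), with sums of 991.2 to 1220 CPM in the control and 671.5 to 887.7 CPM in the stress samples. Non-classical monocyte (277.0 to 355.6 and 242.0 to 330.9 CPM), T cell (350.0 to 388.6 and 319.3 to 415.6), NK cell (49.2 to 91.4 and 43.0 to 105.6) and plasmacytoid dendritic cell markers (30.8 to 36.3 and 27.0 to 33.1) had sums that overlapped between the groups. Of the 7 non-classical monocyte markers, 5 were lower and 2 higher, and edgeR called 0, while DESeq2 called 1 down. The smallest p-values there were those of Cd300e and Ace (log2 fold changes -1.49 and -0.94, edgeR, adjusted p = 0.0411 and 0.0453). The 6 platelet markers were all higher and 3 were called up, with sums of 1136 to 1724 CPM in the control and 2547 to 3334 CPM in the stress samples. Red cell markers, with 7 of 7 higher and 0 called, and eosinophil and basophil markers, with 2 of 3 higher and 0 called, had overlapping sums. No marker of these lists was at 0 in every sample, and the part of these cells in the members' values was not tested beyond the ratios that follow.

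The members were also set against the marker counts of the same library. Per 1000 neutrophil marker counts, Cd14 had 1.05 to 3.46 counts in the control and 3.97 to 9.03 in the stress samples, and per 1000 classical monocyte marker counts 0.483 to 2.75 and 3.37 to 4.75, without overlap in either case. Cd14 was thus higher also relative to these sums, by 2.29 and 2.05 times between the group medians. A sum is led by its abundant genes, and single markers differed from it. The log2 fold change was 4.42 for Vcan and 2.12 for Lcn2, against 2.51 for Cd14. The median log2 fold change was 1.48 over the tested neutrophil markers and 1.29 over the classical monocyte markers.

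Tlr2 and Tlr8, in contrast, overlapped between the groups relative to the myeloid markers. Tlr2 had 6.60 to 17.4 counts per 1000 neutrophil marker counts in the control and 9.44 to 13.1 in the stress samples (1.07 times between medians), and 4.86 to 8.72 and 6.91 to 8.20 per 1000 classical monocyte marker counts (0.959 times). For Tlr8 these medians differed by 1.115 times against neutrophil and 1.05 times against classical monocyte markers, with overlap in each. Tlr13 was at 0.796 and 0.773 times, also with overlap.

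Tlr1 and Tlr9 overlapped between the groups relative to the B cell markers. Per 1000 B cell marker counts, Tlr1 had 29.0 to 33.3 counts in the control and 26.5 to 32.2 in the stress samples (1.06 times between medians), and Tlr9 had 13.3 to 14.9 and 8.32 to 17.7 (1.07 times). Against neutrophil markers, Tlr1 and Tlr9 were at 0.320 and 0.319 times with no overlap. Overlap against the B cell list was not particular to these genes, since Tlr4, Tlr5, Tlr6 and Tlr7 overlapped there too. Tlr4 was at 0.573, 0.585 and 2.12 times against neutrophil, classical monocyte and B cell markers and Tlr5 at 0.576, 0.631 and 2.02 times, with overlap in each. Tlr6 was at 0.601 times against neutrophil markers without overlap, and at 0.559 and 1.80 times against the other lists with overlap. Tlr7 was at 1.32 times against B cell markers with overlap and at 0.463 times against neutrophil markers without. Whether the shares of these cells or the RNA per cell differed cannot be told apart from these counts.

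**Figure D5:**
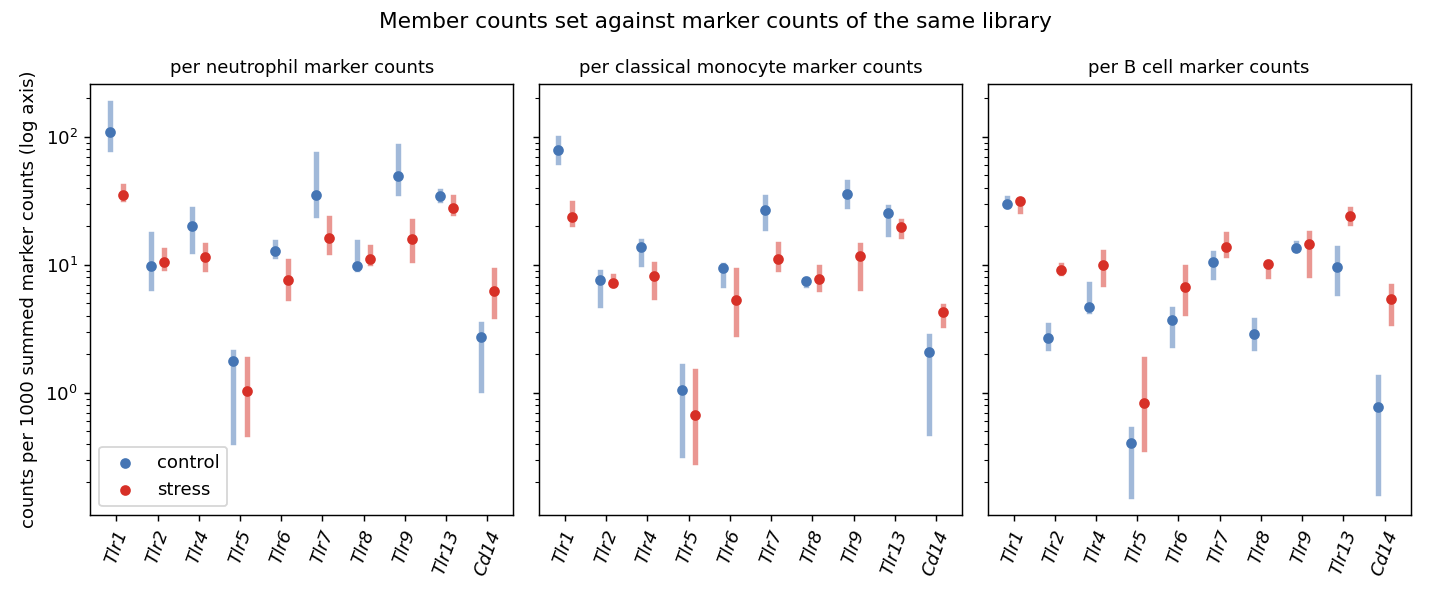
Counts of each member per 1000 summed marker counts of the same library (vertical axes, log scale) for neutrophil, classical monocyte and B cell markers, with the group median (point) and the range over 4 libraries (bar). Cd14 is higher in the stress group against each list, Tlr2 and Tlr8 overlap against both myeloid lists, and Tlr1 and Tlr9 overlap against the B cell list.

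The genes whose profiles over the 8 samples lay closest to a member were found by the root mean square difference of centred log2 CPM, a description without a test. Cd14 had no close match. Its nearest genes were Crispld2, Lcn2 and Lrg1 at 0.50, 0.50 and 0.52, of which Lcn2 encodes the neutrophil granule protein lipocalin-2. Tlr2 lay nearest to Plcb1, Tmem106a and Mocos (0.16, 0.18 and 0.21), and Tlr8 was 12th among the genes nearest to it, at 0.25. Tlr8 lay nearest to Il13ra1 (0.08), Tlr13 to Cdc42bpa (0.06), Tlr4 to Adssl1 (0.14), Tlr5 to Stxbp6 (0.36) and Tlr6 to Arsg (0.15). Tlr1 lay nearest to Coro7 (0.03), Tlr9 to Ikzf4 (0.06), which encodes the lymphocyte transcription factor Eos, and Tlr7 to Echs1 (0.10). The median distance to all tested genes ranged from 0.36 for Tlr1 to 1.49 for Cd14.

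Beyond the receptors, 90 genes of the pathway were found in the table and 81 of them tested. Of these, 2 (2.47%) were called up, against 1.69% of all tested genes, and 0 were called down. With the fold threshold dropped, 7 (8.64%) were higher at an adjusted p below 0.01 (edgeR), against 4.59% of all tested genes, and 0 were lower. DESeq2 called 5 up, all among the inducible genes. Among the 5 that passed only with the fold threshold dropped (Rnaset2b, Slc15a3, Myd88, Ube2v1 and Tollip), the adjusted p of each rose above 0.01 in 3 to 5 of the 8 fits lacking 1 sample and with the replicate block (edgeR, 0.0109 to 0.0248). Of 17 tested co-receptor and trafficking genes, 13 were higher and 4 lower (median log2 fold change 0.23), and 2 passed without the fold threshold. These were Rnaset2b, a copy of an endosomal RNase gene (log2 fold change 0.92, edgeR, adjusted p = 0.00315), and Slc15a3, an endolysosomal peptide transporter (0.83, edgeR, adjusted p = 0.00444). Rnaset2b has a near-identical copy, so its count is uncertain. Ctsb was higher by 0.86 without passing (edgeR, adjusted p = 0.0515). Slc15a4, a related transporter needed for endosomal receptor signalling in B cells and dendritic cells, was lower in every stress sample (log2 fold change -0.44, edgeR, adjusted p = 0.0124) but did not pass. Neither did Cd180, a B cell homologue of Tlr4 (-0.58, edgeR, adjusted p = 0.0756), or Cnpy3 (-0.15, edgeR, adjusted p = 0.461). Ly96, which encodes MD-2, had a log2 fold change of 0.09 (standard error 0.45, edgeR, adjusted p = 0.911).

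The 25 tested adaptors and kinases centred on 0, with 11 higher and 14 lower (median log2 fold change -0.04, against -0.03 for all tested genes). Myd88 itself was higher without reaching the fold threshold, at 15.7 ± 1.13 CPM in control and 22.8 ± 1.74 CPM in stress samples (SD, n = 4 each), and the groups did not overlap (log2 fold change 0.53, standard error 0.10, edgeR, adjusted p = 0.00468). Ube2v1, a ubiquitin-conjugating cofactor of TRAF6, was the other to pass without the fold threshold (0.55, edgeR, adjusted p = 0.00764). Tab3 (0.36), Pik3ap1 (-0.41), Ikbkb (-0.22) and Traf3 (-0.37) did not pass (edgeR, adjusted p = 0.143, 0.106, 0.147 and 0.160). Of 11 transcription factor genes, 4 were higher and 7 lower and 0 passed. The smallest p-values were those of Irf8 (log2 fold change -0.31, edgeR, adjusted p = 0.0653), Irf7 (0.76, edgeR, adjusted p = 0.0769) and Rel (-0.56, edgeR, adjusted p = 0.109), and Fos, Rela and Creb1 had log2 fold changes of 1.00, 0.13 and -0.15. At an unadjusted p below 0.05, edgeR gave 1 of the 11 as higher and 2 as lower, against 18.2% and 13% of all tested genes. DESeq2 passed 0.

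Of 16 negative regulators, 11 were higher and 5 lower (median 0.12). Tollip, an inhibitor of IRAK signalling, passed without the fold threshold (0.69, edgeR, adjusted p = 0.00515). Trafd1 and Socs1 (0.44 and 0.77, edgeR, adjusted p = 0.0422 and 0.0803) did not, and Sigirr (-0.18), Tnfaip3 (-0.21) and Sarm1 (-0.84) were lower without passing (edgeR, adjusted p = 0.262, 0.287 and 0.277). On total counts alone Myd88, Ube2v1 and Tollip had log2 fold changes below 0, though above the median of all tested genes on that scale.

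Of 20 genes that receptor signalling induces in myeloid cells, 12 were tested, and 7 of these were higher and 5 lower (median 0.23). Nlrp3, the inflammasome sensor, had a log2 fold change of 1.40 (standard error 0.20, edgeR, adjusted p = 0.00126), and Il1rn, the interleukin-1 receptor antagonist, 1.26 (standard error 0.22, edgeR, adjusted p = 0.00318). These were the 2 called up. Il1rn was not called without control replicate 2, control replicate 3 or stress replicate 4 (edgeR, adjusted p = 0.0154, 0.0104 and 0.0074, the last at a log2 fold change of 0.99), or on total counts alone (log2 fold change 0.58, edgeR, adjusted p = 0.144). Nlrp3 was not called on that scale either (0.73, edgeR, adjusted p = 0.0632). Il1b had a log2 fold change of 1.204 without overlap between the groups and did not pass (edgeR, adjusted p = 0.0151). It was called by DESeq2 (adjusted p = 5.51e-04), limma-voom (adjusted p = 0.00973), edgeR with the replicate block (adjusted p = 6.26e-04) and edgeR without control replicate 1 (adjusted p = 0.00794). Acod1 had the largest log2 fold change of the list, 2.62, at 10 to 23 counts in the control and 9 to 88 in the stress samples, with overlap in CPM. It did not pass (edgeR, adjusted p = 0.0170), nor did Cd80, at 1.003 without overlap (edgeR, adjusted p = 0.0219). DESeq2 called 5 of the 12 up, which were Nlrp3, Il1rn, Il1b, Acod1 and Cd80. The paper, which used DESeq2, lists Cd80 among the up-regulated genes of its Il1b module. Cd40 (-0.34), Tnf (-0.39) and Ccl4 (-0.39) did not pass either (edgeR, adjusted p = 0.246, 0.489 and 0.608). Transcripts of the 8 that could not be tested were nearly absent from blood RNA. Ifnb1 had 0 counts in every sample, and Il6, Il10, Il12b, Cxcl2, Cxcl10, Ptgs2 and Nos2 had at most 15 counts in any sample. The paper's ELISA, which measures serum protein and not RNA, found more IL-6 and IL-1beta after restraint and no significant change in TNF-alpha.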

How the data were processed

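RNA from the peripheral blood of 4 control and 4 stress mice was sequenced as Illumina TruSeq libraries on a NovaSeq instrument. The table deposited by the authors holds raw counts, not normalized, with 1 row for each gene symbol and 1 column for each mouse. The submitters' processing notes name HISAT2, featureCounts and mm10, while versions, annotation, strand setting and filters are not given in the sources used here. Coordinates and exon lengths come from GENCODE M21 (GRCm38, the same build), in which all 10 members were found.

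The 11718 genes that reached 10 counts in 4 or more samples entered the robust quasi-likelihood test of edgeR 4.0.16 in R 4.3.3 after TMM normalization, all 8 samples in one fit without covariates, with Benjamini-Hochberg adjustment and the study's thresholds. The standard error is the log2 fold change divided by the root of the F statistic. Log2 CPM used a prior count of 2, and exact permutation tests ran over 70 assignments in SciPy 1.17.1. The test was checked on simulated data. Alternatives were DESeq2 1.42.0, limma-voom 3.58.1, other scalings, filters and thresholds, a block on the replicate number, and fits lacking 1 sample each.

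The members, lists and tests were chosen with earlier results of these data known. Named genes are all members, the other Toll-like receptors, the called genes of each pathway list with up to 3 of the smallest p in each direction, and the nearest profiles. Ly96, Acod1 and Cd80 were named after their values were seen. Of the markers, up to 3 of the smallest p are named for the neutrophil, classical monocyte, B cell and non-classical monocyte lists. 1 listed gene, Tasl, was not matched in the table. Depth limits the scarce members, Tlr5 and Cd14, most. No libraries of a group agreed within sampling noise (at least 18.5 chi-square units per gene).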

Additional observations from a re-analysis of the deposited data

How the results depend on the processing

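Cd14, Tlr2 and Tlr8 made up the 3 members called up in most fits, and the scaling mattered most. On total counts alone 1 member was called up (Cd14) and 1 down (Tlr1), against 14 genes up and 728 down of all tested genes and 1 up and 4 down in the pathway lists. On that scale the log2 fold change changed sign for Tlr4 (-0.18), Tlr6 (-0.24), Tlr7 (-0.80), Tlr12 (-0.47), Tlr3 (-0.10), Ly96 (-0.74), Myd88 (-0.23), Ube2v1 (-0.25), Tab3 (-0.44), Irf7 (-0.018), Rela (-0.68), Tollip (-0.068), Trafd1 (-0.35) and Socs1 (-0.11), all above the shift of -0.82. The 4 pathway genes called down there were Slc15a4, Cd180, Pik3ap1 and Rel. Tlr7 also changed sign with upper quartile factors (-0.0035) and in 3 fits that left out one sample, where its log2 fold change ranged from -0.10 to 0.14 (-0.06 without control replicate 2, -0.04 without control replicate 4). Ly96 did so without control replicate 1 (-0.11) and without stress replicate 1 (-0.05), within a range of -0.11 to 0.43. Of all tested genes, DESeq2 called 307 up and 12 down, a limit of 0.05 on the adjusted p gave 337 and 20, and no fold threshold 538 and 38. Called down were 4 with no filter, 4 with upper quartile factors, 3 with limma-voom, 3 without haemoglobin genes and 1 with the replicate block. In the pathway lists 5 were called up with DESeq2, 5 with the limit of 0.05, 7 without the fold threshold, 3 with limma-voom and 3 with the replicate block.

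Leaving out one sample gave 2 to 4 members called up and 0 down, 76 to 340 of all tested genes up and 1 to 8 down, and 1 to 4 pathway genes up. The lowest and highest counts up came from the fits lacking control replicate 2 and control replicate 4, and that lacking control replicate 3 gave 95. The members gained Tlr13 without control replicate 4 or stress replicate 2 and lost Cd14 in 3 fits. For the ratios, leaving out a sample raises the smallest possible p to 0.0571, so 0 pairs could pass. With the replicate block, a sign-flip test over 4 pairs has a smallest p of 0.125 and 0 pairs could pass. The replicate numbers did not pair the samples (correlations of same-numbered deviations from -0.16 to 0.0621). The block left 3 members called up. The cause of each change was not tested. Changes in Tlr5 and Tlr3 were not detectable at this depth and spread between mice, and Tlr11 was not tested.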

Other observations

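Within the stress group, 9 of the 10 members (all but Tlr6) were higher in both libraries with the lower haemoglobin share, stress replicates 1 and 4 at 66.5% and 61.2%, than in stress replicates 2 and 3 at 70.4% and 75.5%. Of all tested genes, 21.8% had this order on the same TMM scale. Tlr9 was 13.9 and 15.8 CPM in the former and 8.30 and 6.98 CPM in the latter, and Tlr4 9.10 and 11.2 against 6.08 and 5.92 CPM. The order was noticed after the values were seen, no test of it was run, and the part of the haemoglobin share in it was not tested.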
